A study of Rattus norvegicus with 59 samples.

Results

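Lungs of silica-exposed and air-exposed rats were compared 6 months after the end of exposure, across all tested genes of the deposited expression table. The comparison used the 10 libraries whose labels give a post-exposure time of 6 months, 5 from silica rats and 5 from air rats, out of 59 libraries in the series. All animals were male Fischer rats (F344/DuCrl) that were 3 months old at purchase. They had been placed in whole-body chambers with crystalline silica at 15 mg/m3 or with air, 6 h per day for 5 days, and each library came from a piece of lung of 1 rat. The other times in the series were 1, 3, 9, 12 and 18 months, each with its own air group, so the 6-month air rats served no other comparison.

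Crystalline silica is a mineral dust that alveolar macrophages take up but cannot digest. Particles that reach the lysosome damage it, and the macrophages and the neutrophils they recruit release oxidants, proteases and signals that can keep inflammation going long after the dust was breathed in. The alveolar type 2 cell, which makes surfactant, is known to enlarge and multiply in silica-exposed rat lungs, and scarring follows in silicosis.

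Expression was given as FPKM, the fragments mapped to a gene, scaled to the length of its transcript and to the mapped total of the library. The table held 2887 complete entries, and of the 2061 names found in the rat RefSeq annotation 2046 (99.3%) lay on chromosome 1, so genes elsewhere were not analysed here. Of the entries, 1278 were tested, those with 4 or more libraries at 1 FPKM or higher. Among them, 40 had fewer than 4 air libraries at that level over all times and so needed their silica libraries to pass, and 16 of the genes that rose at 6 months are of this kind. The FPKM of the 6-month libraries summed to between 12830 and 15118. The depth of a library relative to the others, estimated from the spacing of its lowest values, ranged from 1.03 to 1.48 in air and from 0.73 to 1.24 in silica libraries (exact two-sided permutation p = 0.095238, n = 5 and 5), and its part in the results was not tested. Within groups the correlation across genes between 2 libraries was 0.9299 to 0.9817 on the log2 scale, and between groups it was 0.9203 to 0.9721. In bulk lung, fewer cells of a type and less RNA per cell cannot be told apart.

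At 6 months, genes of myeloid cells, lysosomes, type 2 cells, glycolysis and the cell cycle were higher in silica lungs, and 7 of 12 tested genes of blood vessel cells were lower. Of the 1278 tested genes, 353 (27.6%) passed an adjusted p of 0.05 (limma, Benjamini-Hochberg over all tested genes), 271 (21.2%) higher and 82 (6.42%) lower in silica. Rises were larger than falls: 83 genes rose by at least 0.5 on the log2 scale and 9 fell by as much. The median change was 0.40 among genes that rose and -0.33 among genes that fell. In 322 genes (25.2%) the silica and air libraries did not overlap, 263 (20.6%) with silica higher and 59 (4.62%) with silica lower. Over all tested genes the median difference was 0.05, and the balance of directions moved with the scaling. After each library was centred on its median, 205 genes rose and 143 fell, so 58.9% of the calls were rises against 76.8% without centring. Quantile normalization gave 170 rises and 195 falls, a share of 46.6%. On the first principal component of the 10 libraries, which held 33.1% of the variance, the silica libraries lay between 4.28 and 8.14 and the air libraries between -7.80 and -4.13.

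**Figure D1:**
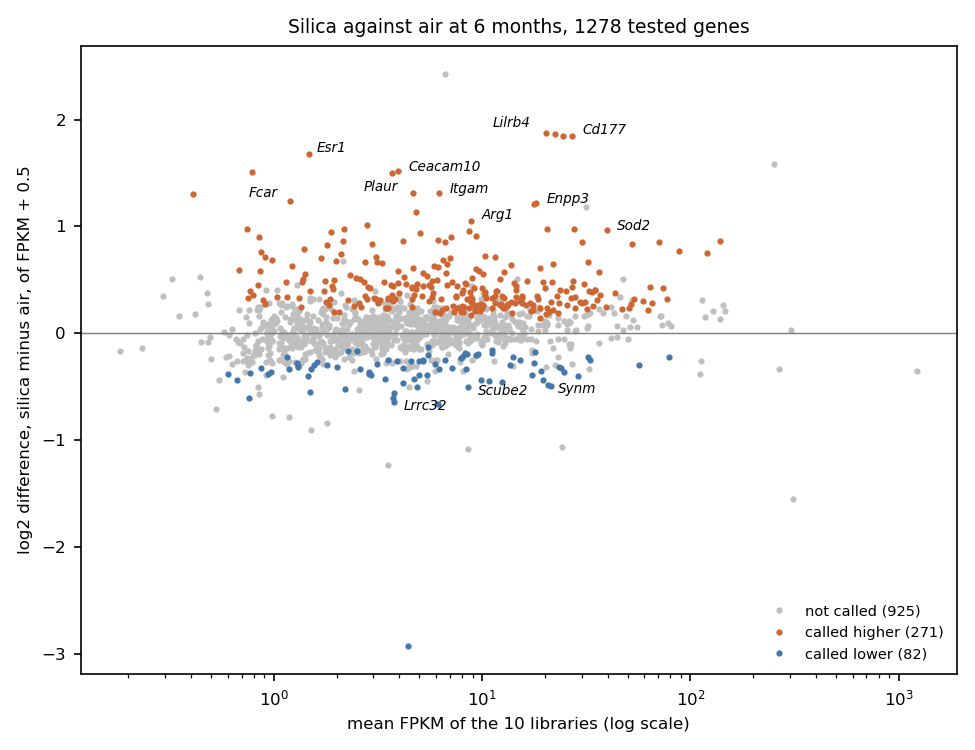
Difference between silica and air lungs at 6 months (vertical axis, log2 of FPKM + 0.5) against the mean FPKM of the 10 libraries (logarithmic horizontal axis) for tested genes with a mean above 0. The 271 genes that rose reach up to 1.87 and most of the 82 that fell lie within 0.7 of 0, apart from the small RNA entry Mir3572 at -2.92.

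Lilrb4 rose most among genes with a symbol. It encodes an inhibitory receptor of macrophages and other myeloid cells that carries immunoreceptor tyrosine-based inhibitory motifs. The air lungs had 8.43, 7.69, 9.93, 7.15 and 9.20 FPKM and the silica lungs 31.6, 29.9, 31.8, 34.8 and 33.0 FPKM. The lowest silica library was far above the highest air library. The rise was 3.66-fold, or 1.87 ± 0.19 on the log2 scale (the error is the SE here and below; limma adjusted p = 2.94e-10). The entry Lilrb4-2 stayed at 0 to 1.56 FPKM, with a log2 difference of -0.44 (adjusted p = 0.519), and reads shared between the copies can leave both levels uncertain.

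Among the 16 largest rises named here, Itgam and Plaur had the highest correlations with Lilrb4 over all 59 libraries, at lower levels. Itgam encodes integrin alpha M, the CD11b chain of complement receptor 3 on neutrophils, monocytes and many recruited macrophages. Its air values were 3.40, 3.43, 3.56, 2.82 and 3.55 FPKM and its silica values 8.58, 8.23, 8.77, 9.72 and 9.86 FPKM. The groups were well apart, and air replicate 4 was the lowest library. Itgam rose by 1.31 ± 0.20 on the log2 scale (adjusted p = 2.49e-06). Plaur, the urokinase receptor that focuses plasmin formation at the cell surface, had 2.33, 2.49, 2.16, 2.46 and 2.90 FPKM in air and 7.29, 6.49, 7.25, 6.07 and 7.27 FPKM in silica. No silica library came near the air range, and the rise was 1.31 ± 0.17 (adjusted p = 6.16e-08). Ranked by Pearson correlation with Lilrb4 over all 59 libraries, the nearest genes were Itgam (0.9547), Apobr (0.9227), Saal1 (0.9177), Napsa (0.9177) and Plaur (0.9173). These libraries share the split into silica and air and the depth of each library, and the values are a description. Saal1 reached 1 FPKM in 0 of 29 air and 17 of 30 silica libraries, so it was among the tested genes only through its silica libraries.

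The 250 bases before the RefSeq start site (GRCr8) are shown for Lilrb4, for Itgam and Plaur, whose levels followed it, and for Fcar, a receptor gene of the same chromosome region that also rose. They lie at chr1:78853253-78853502 on the minus strand for Lilrb4, chr1:192089342-192089591 on the plus strand for Itgam, chr1:89181113-89181362 on the plus strand for Plaur and chr1:78703224-78703473 on the minus strand for Fcar. Capitals mark matches to the AP-1 motif TGANTCA or the C/EBP motif TTGCNNAA on either strand.
Lilrb4: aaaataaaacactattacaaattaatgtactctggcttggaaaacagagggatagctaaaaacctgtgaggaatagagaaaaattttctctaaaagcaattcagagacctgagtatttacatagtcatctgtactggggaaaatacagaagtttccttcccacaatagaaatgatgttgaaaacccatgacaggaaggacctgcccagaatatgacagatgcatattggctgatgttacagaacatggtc
Itgam: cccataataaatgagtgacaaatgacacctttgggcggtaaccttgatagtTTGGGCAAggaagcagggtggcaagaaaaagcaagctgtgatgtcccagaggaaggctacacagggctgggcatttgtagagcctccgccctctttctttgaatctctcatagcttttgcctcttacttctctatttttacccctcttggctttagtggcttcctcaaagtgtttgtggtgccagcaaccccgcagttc
Plaur: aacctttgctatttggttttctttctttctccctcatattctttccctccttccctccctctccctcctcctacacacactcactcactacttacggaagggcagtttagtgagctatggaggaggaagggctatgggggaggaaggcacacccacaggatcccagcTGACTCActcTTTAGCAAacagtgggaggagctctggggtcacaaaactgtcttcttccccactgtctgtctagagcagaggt
Fcar: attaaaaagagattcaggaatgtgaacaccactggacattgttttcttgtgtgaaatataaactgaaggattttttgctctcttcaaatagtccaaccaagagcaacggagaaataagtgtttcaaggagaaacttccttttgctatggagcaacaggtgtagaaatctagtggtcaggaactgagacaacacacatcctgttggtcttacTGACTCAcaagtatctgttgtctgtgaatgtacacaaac

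Plaur held both motifs side by side, Fcar the AP-1 motif, Itgam the C/EBP motif and Lilrb4 neither in this window. Over promoters of genes that rose (n = 188), 6.38% held the AP-1 motif and 11.2% the C/EBP motif, against 6.36% and 9.20% of all 27457 RefSeq promoters of the table. Over all tested genes with a promoter in the table, the shares were 5.07% and 8.69%. The E-box CACGTG was in 12.8% of promoters of genes that rose and 13.5% of those that fell (n = 52), against 9.29% over tested genes and 5.80% over all promoters. The PU.1 motif GAGGAAGT was in 2.66%, 0% and 2.04% of the rising, falling and all promoters, and an NF-kB motif in 1.06%, 0% and 0.994%. An estrogen response element was found in 0% of the promoters of tested genes and in 0.022% of all promoters, too rare for its absence to be read as a result. A match is a stretch of letters and not a measured binding site.

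Myeloid receptor genes rose together. Here and below, the counts in lists compare with 21.2% called higher and 6.42% called lower over all tested genes. The lists were chosen with earlier results of these data known, so these comparisons are descriptions. Of 16 tested genes among 27 listed, 11 rose and 0 fell, with a median difference of 0.53 on the log2 scale against 0.05 over all tested genes. Among the 11, Fcar and Oscar entered the test through their silica libraries. Hcst (0.56, adjusted p = 0.0359) lost its call after median centring (0.0688) or quantile normalization (0.0849), and on leaving out any of 5 libraries (0.0644 to 0.105). The summed level of the list over 21 entries was 100.7 to 118.9 FPKM in air and 194.6 to 211.4 FPKM in silica lungs. Its rise came mostly from Tyrobp, at 57.9 to 71.6 FPKM in air and 107 to 117 FPKM in silica, and from Lilrb4. Fcar, an Fc receptor, had air values of 0.448, 0.491, 0.510, 0.470 and 0.536 FPKM and silica values of 2.43, 1.81, 1.21, 2.56 and 1.47 FPKM. Silica replicates 3 and 5 were the lowest of their group and still above every air library. Fcar rose by 1.24 ± 0.16 (adjusted p = 1.16e-07), on a scale whose added 0.5 FPKM shrinks changes of genes this low. As no air library at any time reached 1 FPKM (the highest was 0.821 FPKM), Fcar entered the test through its silica libraries and had to differ at some time.

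Tyrobp, the DAP12 adaptor through which many activating myeloid receptors signal, was the most abundant of the receptor genes. It had 71.6, 60.7, 70.3, 57.9 and 66.1 FPKM in air and 117, 107, 111, 110 and 111 FPKM in silica. The silica libraries were nearly level with each other and all above air, and the rise was 0.77 ± 0.14 (adjusted p = 2.30e-05). Cd33, a sialic acid-binding inhibitory receptor, was at 2.89, 2.45, 2.60, 2.32 and 3.95 FPKM in air and 6.55, 6.65, 6.31, 7.93 and 6.45 FPKM in silica. Air replicate 5 and silica replicate 4 were the highest of their groups, and the groups did not overlap (1.14 ± 0.17, adjusted p = 1.39e-06). C5ar1, the receptor of the complement fragment C5a that attracts neutrophils, rose from 4.05 to 5.28 FPKM in air to 8.19 to 9.32 FPKM in silica (0.86 ± 0.14). Its second receptor C5ar2 rose by 0.45 ± 0.11, the osteoclast-associated receptor gene Oscar by 0.71 ± 0.13 and Lilrb3 by 0.51 ± 0.13. Oscar reached 1 FPKM in 1 of 29 air and 20 of 30 silica libraries over all times, so it entered the test through its silica libraries. Lilra5 (0.32, adjusted p = 0.0515) and Siglec10 (0.28, adjusted p = 0.11) did not pass the test. Gp6, the platelet collagen receptor, was at -0.14 (adjusted p = 0.73).

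Genes of neutrophils and of protease activity at the cell surface split. Cd177, a glycoprotein of the neutrophil surface that binds proteinase, had 13.8, 8.56, 10.2, 10.8 and 14.9 FPKM in air and 46.8, 39.3, 38.8, 41.8 and 45.1 FPKM in silica. Every silica library was above 38 FPKM and every air library below 15 FPKM. It rose 3.59-fold, by 1.84 ± 0.23 (limma adjusted p = 2.32e-08). Ceacam10, a member of the carcinoembryonic antigen family, had 1.98, 1.73, 1.93, 1.22 and 2.2 FPKM in air and 6.75, 7.26, 5.70, 6.02 and 4.76 FPKM in silica. The groups were separate, and the rise was 1.51 ± 0.20 (adjusted p = 1.25e-07). The placeholder entries LOC103691058 (1.85) and LOC100909700 (1.86) gave nearly the change of Cd177, and LOC103689942 (1.50) that of Ceacam10, so shared reads can leave these levels uncertain. With Plaur, 3 of 6 tested genes of the list rose and 0 fell. Ceacam1, an inhibitory family member found on many cells (-0.02), and Adam8, a leukocyte metalloprotease (0.00 ± 0.13), were near 0. Pglyrp1, a neutrophil granule protein, was at 0.46 (adjusted p = 0.16).

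**Figure D2:**
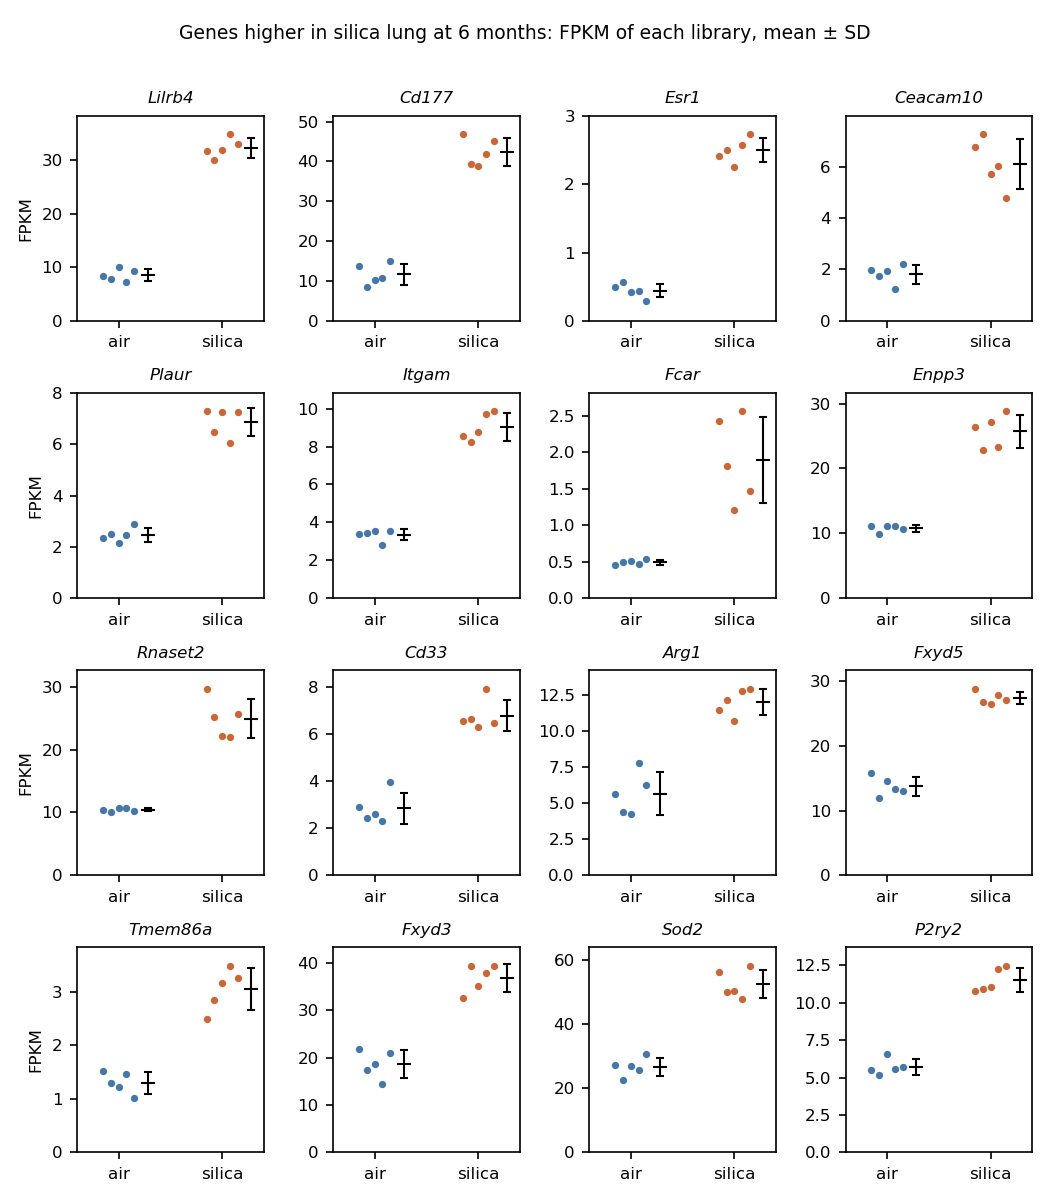
FPKM in each of the 5 air and 5 silica lungs at 6 months (vertical axis, own linear scale from 0 in each panel) for genes with large rises, with 1 point per rat and the group mean ± SD beside them. In Lilrb4 the silica libraries lie between 29.9 and 34.8 FPKM and the air libraries between 7.15 and 9.93 FPKM.

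Leukocyte integrin and cytoskeleton genes rose in 6 of 9 tested, and 0 fell (median 0.33). Itgax, the CD11c chain carried by alveolar macrophages and dendritic cells, had 4.70, 3.95, 3.92, 3.82 and 4.60 FPKM in air and 8.62, 8.12, 8.08, 7.94 and 7.70 FPKM in silica. The groups were separated by about 3 FPKM (0.87 ± 0.13, adjusted p = 1.54e-06). Tagap, a GTPase-activating protein of activated lymphocytes, rose by 0.66 ± 0.13, Coro1a, an actin regulator of leukocytes, by 0.40 ± 0.11 and Itgal, the alpha chain of LFA-1, by 0.33 ± 0.09. Neither Itgal (adjusted p = 0.0953) nor Coro1a (0.251) was called after quantile normalization, which gave 4 rises, 1 fall and a median of 0.17 for the list. Itgad, the integrin alpha D chain beside Itgam and Itgax, was at -0.24 (adjusted p = 0.23).

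Among macrophage lipid and activation genes, 5 of 11 tested rose and 0 fell (median 0.26, and 0.11 after quantile normalization). Arg1, arginase, which competes with nitric oxide synthase for arginine and feeds proline and polyamine synthesis, had 5.62, 4.38, 4.23, 7.80 and 6.25 FPKM in air and 11.5, 12.1, 10.7, 12.7 and 12.9 FPKM in silica. Air replicate 4 was the highest air library and remained below all silica libraries (1.05 ± 0.18, adjusted p = 1.55e-05). Apobr, a macrophage receptor for apolipoprotein B48, rose by 0.90 ± 0.12, with 4.39 to 5.27 FPKM in air and 9.01 to 9.94 FPKM in silica. Tmem86a, a lysoplasmalogenase, rose by 0.98 ± 0.21, and Folr2, a folate receptor of tissue macrophages, by 0.74 ± 0.21. Apoe, the lipid carrier apolipoprotein E, did not pass (0.26 ± 0.19, adjusted p = 0.335). Its silica range of 131 to 172 FPKM overlapped the air range of 109 to 152 FPKM. The apolipoprotein genes Apoc1 (-1.08 ± 0.61) and Apoc2 (-0.91 ± 0.47) did not pass, and air replicate 4 stood far above the other air libraries in both, at 25.4 against 6.85 to 10.5 FPKM and at 6.22 against 0.583 to 1.81 FPKM.

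Lysosome genes rose in 8 of 9 tested of 17 listed, and 0 fell (median 0.43). After quantile normalization 5 rose and the median was 0.26. Their summed level was 130.6 to 139.0 FPKM in air and 163.2 to 175.8 FPKM in silica. Prcp, a lysosomal carboxypeptidase, had the largest change, 0.73 ± 0.12, from 7.29 to 8.34 FPKM in air to 12.2 to 14.0 FPKM in silica. Hps5, which helps sort cargo to lysosome-related organelles, rose by 0.43 ± 0.06 (adjusted p = 1.25e-07), and Igf2r, the receptor that carries enzymes to lysosomes, by 0.43 ± 0.07. Lamtor1, which anchors nutrient signalling at the lysosome, and Cln3, a lysosomal membrane protein, both rose by 0.46 ± 0.09. Tpp1 and Ctsc, lysosomal peptidases, each rose by 0.28, but not after quantile normalization (adjusted p = 0.161 and 0.167). The sphingomyelinase gene Smpd1 was at 0.10 (adjusted p = 0.24).

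Oxidant and iron genes rose in 6 of 9 tested, and 0 fell (median 0.27). This balance moved with the scaling: median centring gave 4 rises and 1 fall, and quantile normalization 3 rises and 1 fall with a median of 0.14. Sod2, the mitochondrial superoxide dismutase, had 27.1, 22.7, 26.8, 25.8 and 30.7 FPKM in air and 56.4, 50.1, 50.5, 47.8 and 58.2 FPKM in silica. It was about doubled, with no overlap (1.96-fold, log2 0.97 ± 0.15, adjusted p = 3.22e-06). Ftl1, the ferritin light chain that stores iron, had 103, 92.2, 90.1, 101 and 107 FPKM in air and 174, 163, 179, 197 and 188 FPKM in silica. All silica libraries were above 160 FPKM (0.86 ± 0.16, adjusted p = 4.96e-05), and ferritin pseudogenes can share its reads. Ucp2, a mitochondrial carrier, rose by 0.39 ± 0.12 (not called after quantile normalization, adjusted p = 0.393) and Vnn1, a pantetheinase, by 0.44 ± 0.12. Blvrb, biliverdin reductase B, rose by 0.27 ± 0.09, but not after median centring (adjusted p = 0.0509) or quantile normalization (0.226). Nox4, an NADPH oxidase of fibroblasts and vessel cells, was at -0.30 ± 0.12 (adjusted p = 0.051).

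Enzymes and receptors of extracellular nucleotides moved in both directions, with 3 of 4 tested genes higher and 1 lower. Enpp3, an ectonucleotide pyrophosphatase of mast cells, basophils and epithelia, had 11.0, 9.90, 11.1, 11.0 and 10.6 FPKM in air and 26.4, 22.9, 27.1, 23.4 and 28.8 FPKM in silica. The air libraries were nearly level, and the lowest silica library was over 2 times the highest air library. Enpp3 rose by 1.22 ± 0.16 (adjusted p = 1.07e-07). Enpp1, which makes pyrophosphate and hydrolyses ATP, had 5.36, 5.12, 5.59, 5.22 and 6.00 FPKM in air and 3.83, 3.80, 4.04, 4.38 and 3.68 FPKM in silica. It fell by 0.42 ± 0.06 (adjusted p = 1.32e-06), with no overlap. P2ry2, a receptor for ATP and UTP on epithelium and leukocytes, rose by 0.95 ± 0.15, from 5.18 to 6.57 FPKM in air to 10.8 to 12.5 FPKM in silica. P2ry6, a UDP receptor, rose by 0.48 ± 0.12.

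All 3 tested type 2 cell genes of 11 listed rose. Lpcat1, which makes the saturated phosphatidylcholine of surfactant, had 50.0, 49.2, 53.6, 48.4 and 50.2 FPKM in air and 95.0, 83.1, 92.7, 90.9 and 95.8 FPKM in silica (0.86 ± 0.10, adjusted p = 1.09e-08). Napsa, the aspartic protease napsin A that processes surfactant proteins, had 90.8, 84.9, 88.3, 90.3 and 92.6 FPKM in air and 153, 139, 154, 153 and 158 FPKM in silica (0.75 ± 0.11). Cebpa, a transcription factor of type 2 and myeloid cells, went from 10.1 to 11.8 FPKM in air to 15.8 to 17.9 FPKM in silica (0.64 ± 0.10). In all 3 genes the groups were far apart relative to their spread, and replicate 2 was lowest in silica for Lpcat1 and Napsa. Other surfactant genes were not analysed here, so the type 2 list rests on 3 genes.

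Among genes of the airway and surface epithelium, 6 of 8 tested rose and 0 fell (median 0.43). Median centring gave 5 rises, and quantile normalization 6 rises and 1 fall. The rise of Folr1 (0.63, adjusted p = 0.0419) was not called after median centring (0.0618) or on leaving out any of 7 libraries (0.0507 to 0.134). Cxcl17, a mucosal chemokine, was at 33.1 to 42.6 FPKM in air and 62.3 to 71.3 FPKM in silica (0.83 ± 0.10, adjusted p = 3.06e-08). Spint2 (0.43 ± 0.07), a protease inhibitor, Prss8 (0.39 ± 0.08), the protease prostasin that activates the epithelial sodium channel, and the channel subunit gene Scnn1b (0.46 ± 0.11) also rose. The subunit gene Scnn1g was at 0.13 (adjusted p = 0.29). Of 3 tested cilia genes 0 were called (median -0.19). Among 7 tested cytochrome P450 genes 1 fell, Cyp2e1 (-0.66 ± 0.20, adjusted p = 0.012), which was not called without air replicate 4 (-0.46, adjusted p = 0.0863), the highest air library.

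Fxyd3 and Fxyd5, neighbouring genes for small regulators of the sodium pump, rose to a similar extent. Fxyd5 had 11.9 to 15.8 FPKM in air and 26.4 to 28.8 FPKM in silica (0.98 ± 0.14), and Fxyd3 14.5 to 21.8 FPKM and 32.5 to 39.4 FPKM (0.97 ± 0.15). Fxyd1, of the same family, did not rise (-0.31 ± 0.15, adjusted p = 0.127), and was called lower at 9, 12 and 18 months (-0.78, -0.49 and -0.56). Rnaset2, a lysosomal ribonuclease, rose by 1.21 ± 0.19, with air libraries at 10.1 to 10.7 FPKM and silica libraries at 22.0 to 29.8 FPKM. Dgat2, which makes triglycerides in fat cells and in other lipid-storing cells, rose by 0.91 ± 0.15, while the other called adipocyte genes, Lipe, the hormone-sensitive lipase (-0.34), and Acsm5 (-0.46), fell. The fall of Lipe was not called without air replicate 3 (adjusted p = 0.0545) or silica replicate 5 (0.0537).

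Proliferation genes were higher from a low base. Of 9 tested cell cycle and replication genes, 6 rose and 0 fell (median 0.28). Mki67, the Ki-67 antigen of dividing cells, had 1.46, 1.62, 1.30, 1.15 and 1.33 FPKM in air and 3.33, 2.60, 2.64, 2.79 and 3.16 FPKM in silica. No library of one group reached the other (0.86 ± 0.13, adjusted p = 1.69e-06). Prc1, needed for the central spindle, rose by 0.72 ± 0.14, the chromokinesin gene Kif22 by 0.69 ± 0.15 and Rrm1, the large subunit of ribonucleotide reductase, by 0.49 ± 0.08. Kif22 reached 1 FPKM in 3 of 29 air and 25 of 30 silica libraries over all times, so it entered the test through its silica libraries. The polymerase delta genes Pold1 (0.15) and Pold3 (0.08) did not pass.

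All 4 tested genes of the glycolysis list rose, including Gys1, which serves glycogen synthesis rather than glycolysis. Ldha, lactate dehydrogenase A, had 25.5, 23.8, 23.2, 25.7 and 26.2 FPKM in air and 43.4, 38.5, 37.6, 38.4 and 41.6 FPKM in silica, with no overlap (0.67 ± 0.10, adjusted p = 1.32e-06). Aldoa, aldolase, rose by 0.42 ± 0.09, Gys1, glycogen synthase of muscle and other tissues, by 0.36 ± 0.07 and Gpi by 0.29 ± 0.07, the latter not after quantile normalization (0.06, adjusted p = 0.415). Of 8 mitochondrial genes 3 rose, the pyruvate carrier gene Mpc1 by 0.41 ± 0.08, Ndufc2 of complex I by 0.40 ± 0.10 and Etfb by 0.30 ± 0.10. After quantile normalization 1 of the 3 was still called, with a list median of 0.09 against 0.19, and Ndufc2 (adjusted p = 0.146) and Etfb (0.304) were not. Etfb also lost its call after median centring (0.0639) and without air replicate 2 (0.0523), air replicate 3 (0.0802) or silica replicate 1 (0.0846).

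Interferon and NF-kB genes were called higher at 18.2% and 16.7% of those tested, near the 21.2% of all tested genes. Of 11 tested interferon and inflammasome genes 2 rose, Ifitm1, which blocks virus entry (0.49 ± 0.12), and Trim30 (0.31 ± 0.09), and the list's median of 0.16 became -0.04 after quantile normalization. Pycard, the inflammasome adaptor ASC, was at 0.22 ± 0.14 (adjusted p = 0.23). Of 6 tested NF-kB and TNF genes 1 rose, the kinase gene Sgk1 (0.48 ± 0.10). Of the 6 differences 4 were positive. Bcl3 was at 0.31 (adjusted p = 0.067), not called though its groups did not overlap, and Nfkbib at 0.16 (adjusted p = 0.28). Relb, an NF-kB subunit, was at -0.05 and Tnfaip3, the inhibitor A20, at -0.18 (adjusted p = 0.052). That list's median of 0.10 became 0.00 after quantile normalization. The summed levels of both lists were higher in every silica library, at 272.7 to 309.8 against 253.3 to 269.3 FPKM for interferon genes and 51.6 to 55.1 against 43.3 to 46.0 FPKM for NF-kB genes. Sgk1 was the largest member of the NF-kB sum, at 17.1 to 19.0 FPKM in air and 23.9 to 26.6 FPKM in silica. That sum therefore does not show a shift of the other members.

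**Figure D3:**
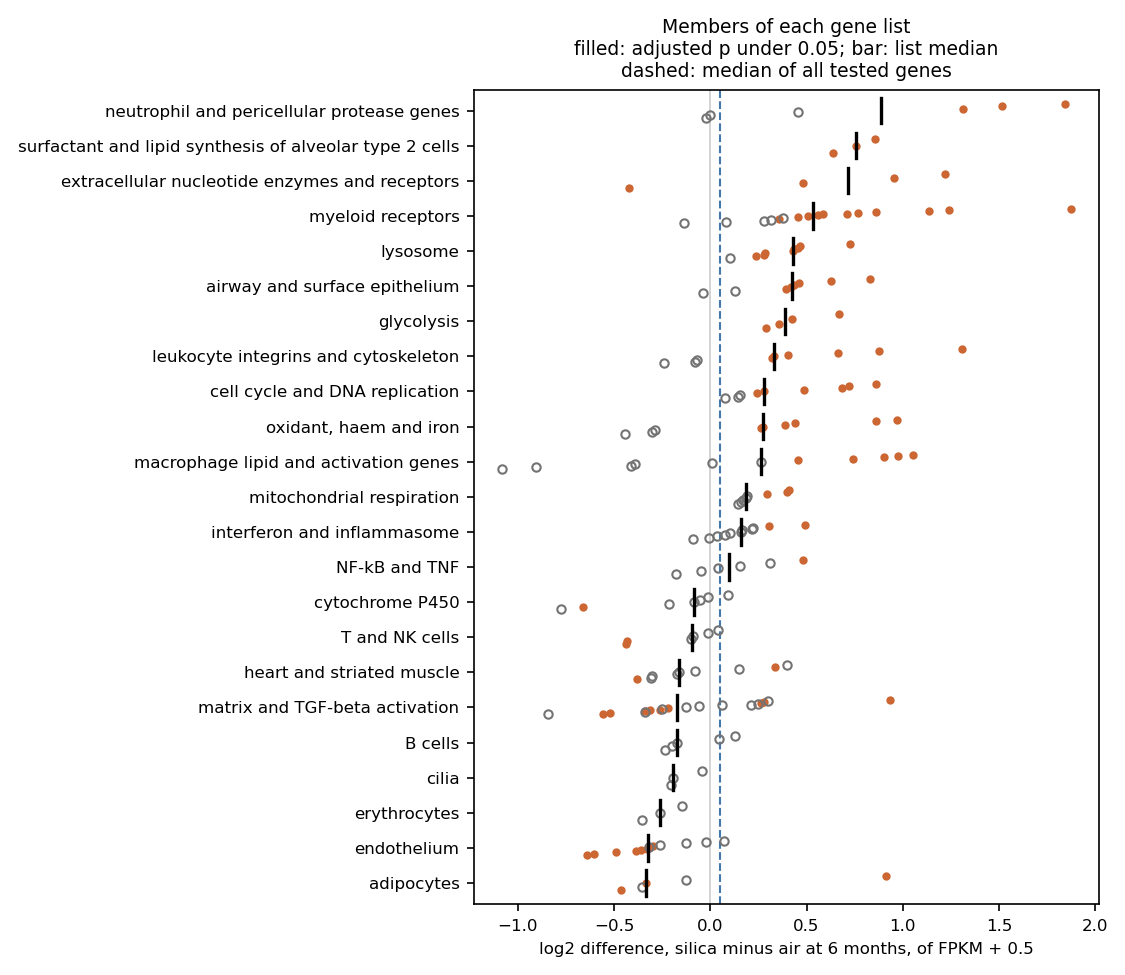
Silica minus air difference at 6 months (horizontal axis, log2 of FPKM + 0.5) for every tested gene of each list, with 1 point per gene, called genes filled, a bar at the list's median and a dashed line at the median of all tested genes (0.05). Lysosome genes, with a median of 0.43, lie to the right of 0, and endothelial genes, with a median of -0.32, mostly to the left.

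Falls were smaller, and vessel genes were among them. Of 12 tested endothelial genes 7 fell (58.3%, against 6.42% of all tested genes) and 0 rose (median -0.32). Their summed level was 221.3 to 251.3 FPKM in air and 200.2 to 218.5 FPKM in silica lungs. Lrrc32, the GARP protein that holds latent TGF-beta on the cell surface, had 3.88, 5.55, 4.63, 4.78 and 4.28 FPKM in air and 2.88, 2.80, 3.00, 2.85 and 2.76 FPKM in silica. The silica libraries were almost level and below all air libraries (-0.60 ± 0.15, adjusted p = 0.00182). Ehd2, a membrane ATPase at the neck of caveolae, had 58.3 to 68.3 FPKM in air and 47.0 to 52.9 FPKM in silica (-0.30 ± 0.07, adjusted p = 0.000404). Akap12, a kinase scaffold of vessel barrier cells, had 23.3, 27.9, 27.2, 24.7 and 22.8 FPKM in air and 16.7, 19.8, 18.5, 17.7 and 15.9 FPKM in silica (-0.49 ± 0.12, adjusted p = 0.00199). Both genes had separate groups. Rasip1, needed for vessel lumens, fell by 0.39 ± 0.11, the prostacyclin receptor gene Ptgir by 0.33 ± 0.13 and Adm, adrenomedullin, by 0.36 ± 0.14. The call of Ptgir ended on leaving out any library but air 4, air 5 and silica 2 (adjusted p = 0.0553 to 0.162), and that of Adm on leaving out any but air 4, air 5, silica 1 and silica 4 (0.0504 to 0.110). Bcam, a laminin receptor (0.07), and Rras, a small GTPase (-0.02), did not pass. Nor did Prkcdbp (-0.26, adjusted p = 0.055), Nr2f2 (-0.32, adjusted p = 0.146) or Myct1 (-0.13, adjusted p = 0.48).

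Dll1, a Notch ligand, had the largest fall among genes with a symbol, a mean of at least 1 FPKM and no overlap of the groups, and its air lungs were uneven. They gave 4.06, 6.03, 3.71, 5.80 and 3.96 FPKM against 3.53, 2.35, 2.95, 2.39 and 2.88 FPKM in silica. Air replicates 2 and 4 were high, and the lowest air library was just above the highest silica library. The change was -0.64 ± 0.21 (adjusted p = 0.0208). It was not called without air replicate 2 (adjusted p = 0.0707), air replicate 4 (0.0636), silica replicate 2 (0.0520) or silica replicate 4 (0.0513).

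Matrix and growth factor genes went both ways, with 3 of 18 tested higher and 6 lower (median -0.17). The balance depended on the scaling, with 2 higher and 9 lower after median centring and 1 higher and 10 lower after quantile normalization. Cpxm2, a carboxypeptidase-like secreted protein, had 3.43, 3.27, 2.63, 3.31 and 3.90 FPKM in air and 6.92, 6.34, 6.49, 7.51 and 6.47 FPKM in silica. It was about doubled (0.93 ± 0.13, adjusted p = 1.23e-07). Furin, the convertase that cleaves TGF-beta and other precursors, rose by 0.26 ± 0.09 and Fgfr2, a receptor of epithelial growth factors, by 0.28 ± 0.07. Furin was not called after median centring (adjusted p = 0.0745) or quantile normalization (0.290), nor Fgfr2 after the latter (0.337). Igf1r, the insulin-like growth factor receptor, had 4.40, 4.65, 4.83, 5.21 and 3.94 FPKM in air and 3.17, 3.13, 2.80, 2.79 and 2.94 FPKM in silica. It fell with no overlap (-0.56 ± 0.10, adjusted p = 1.35e-05). Nell1, a secreted glycoprotein of bone formation (-0.52), Spon1, a spondin of the extracellular matrix (-0.31), and Mfge8, a bridge for the uptake of dying cells (-0.22), also fell. The call of Spon1 ended on leaving out air 2, air 3 or any silica library but silica 2 (adjusted p = 0.0521 to 0.0947). That of Mfge8 ended on leaving out air 2, air 3, silica 3, silica 4 or silica 5 (0.0602 to 0.160). Adamts17 (-0.34, adjusted p = 0.0389) and Adamtsl3 (-0.26, adjusted p = 0.0492) were called lower as well. The call of Adamts17 ended on leaving out any library but air 5 and silica 2 (0.0534 to 0.101). That of Adamtsl3 ended on leaving out any but air 1 (0.0511 to 0.122). Tgfb1 itself was at 0.06 ± 0.12 (adjusted p = 0.743), with 4.75 to 5.52 FPKM in air and 4.97 to 5.59 FPKM in silica. Ctgf, a profibrotic matricellular protein, was at 0.25 ± 0.11 (adjusted p = 0.078), and Serpinh1, the collagen chaperone, at -0.06.

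Further falls came from genes of several kinds. Scube2, a secreted carrier of hedgehog ligands, had 8.53 to 11.7 FPKM in air and 5.80 to 7.56 FPKM in silica (-0.50 ± 0.15, adjusted p = 0.00854). Synm, the intermediate filament protein synemin of muscle cells, had 22.6 to 25.2 FPKM and 15.2 to 19.4 FPKM (-0.48 ± 0.13), and Akap7, another kinase anchor, 5.11 to 6.80 FPKM and 2.38 to 5.01 FPKM (-0.50 ± 0.13). Nova2, a splicing regulator of neurons and endothelium, had 1.43 to 2.37 FPKM and 0.890 to 1.34 FPKM (-0.54 ± 0.14). In each of these 4 genes every silica library was below every air library.

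**Figure D4:**
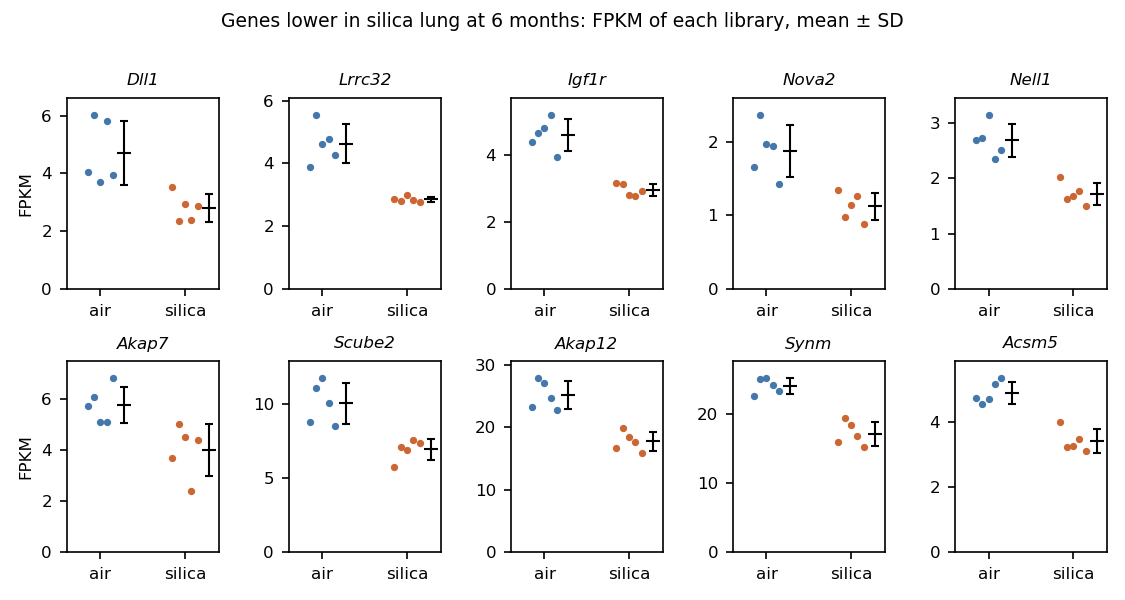
FPKM in each of the 5 air and 5 silica lungs at 6 months (vertical axis, own linear scale from 0 in each panel) for the genes with the largest falls, with 1 point per rat and the group mean ± SD beside them. The silica libraries of Lrrc32 lie between 2.76 and 3.00 FPKM, below the air range of 3.88 to 5.55 FPKM, while the groups of Dll1 nearly touch.

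Markers of other cells that a piece of lung can hold were called in few genes. Of 5 tested B cell genes 0 were called, with sums of 12.6 to 15.1 FPKM in air and 12.0 to 14.5 FPKM in silica. T and NK cell genes summed to 42.5 to 54.6 FPKM in air and 35.3 to 39.8 FPKM in silica, with every silica library below every air library. Of 6 tested, 2 fell, Nkg7, a granule protein of cytotoxic cells (-0.44 ± 0.14, adjusted p = 0.019), and Il4r, the interleukin 4 receptor (-0.43 ± 0.11, adjusted p = 0.00243), which many other cells carry. Il4r was the largest member of the T and NK sum, at 17.6 to 30.1 FPKM in air and 14.9 to 17.7 FPKM in silica. The other 4 tested genes were not called, so the sum does not show a shift of the whole list. Nkg7 was not called without silica replicate 5 (adjusted p = 0.0582). Of 3 erythrocyte genes 0 were called (median -0.26), and their sums of 1262 to 1939 FPKM in air and 901 to 1482 FPKM in silica overlapped. Heart and striated muscle genes summed to 25.1 to 50.0 FPKM in air and 23.8 to 45.7 FPKM in silica. Of 9 tested, 1 rose, Mybpc2 (0.33, adjusted p = 0.0394), which lost its call in 10 alternative settings, and 1 fell, Alpk3 (-0.38). Mybpc2 reached 1 FPKM in 0 of 29 air and 10 of 30 silica libraries over all times, so it entered the test through its silica libraries. The part of blood, heart or lymphoid tissue in the other results was not tested.

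Esr1, the gene of estrogen receptor alpha, was near the lower limit of the table in air and clearly above it in silica. It had 0.494, 0.562, 0.418, 0.438 and 0.292 FPKM in air and 2.42, 2.50, 2.26, 2.58 and 2.74 FPKM in silica. The values were tight within each group and far apart. The change was 1.68 ± 0.28 (adjusted p = 6.43e-06) on the scale that adds 0.5 FPKM. No air library at any time reached 1 FPKM (the highest was 0.755 FPKM), so Esr1 entered the test through its silica libraries and had to differ at some time. Its difference was 0.00 at 1 month and 0.18 at 3 months, and 2.57, 2.40 and 2.01 at 9, 12 and 18 months. The 6-month difference exceeded the 3-month one by 1.49 ± 0.39, which did not pass the test over all genes (limma adjusted p = 0.0973).

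Few genes differed between 6 months and the other times by a test of the difference itself. Against the mean of the other 5 differences, 2 of 1278 genes (0.156%) were called, Lilrb4 (0.91 ± 0.21, adjusted p = 0.0416) and the small RNA entry Mir3572, with 97 genes at an unadjusted p under 0.05. Lilrb4 had differences of 0.31, 0.70, 1.87, 1.61, 0.99 and 1.22 from 1 to 18 months, and the 6-month value was the highest in this series. It was called in 6 of 18 alternative settings, with adjusted p from 0.00194 to 0.395. Leaving out any single 6-month library ended the call, while the difference was 0.82 to 0.96 over the alternatives. Mir3572 was listed at 0 in all 5 silica and 2 air libraries and at 10.6, 21.1 and 12.5 FPKM in the other air libraries, so its fitted difference of -3.12 rests on 3 libraries.

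Against the 3-month difference, 3 genes (0.235%) were called and 112 had an unadjusted p under 0.05. Lilrb4 was higher by 1.18 ± 0.27 (adjusted p = 0.0379), called in 10 of 17 alternatives. It lost that call without air replicate 2 or 4, without silica replicate 1, 3, 4 or 5, and without a filter on low values. Dbp, a transcription factor of the circadian clock, was higher by 1.87 ± 0.39 (adjusted p = 0.0165), and lost the call without silica replicate 4 (adjusted p = 0.0627). Its 6-month values were 1.62, 2.02, 1.48, 2.04 and 2.65 FPKM in air and 2.07, 3.99, 4.27, 5.16 and 4.43 FPKM in silica. Silica replicate 1 lay within the air range. LOC103691058, one of the entries that follow Cd177, was lower by 1.23 ± 0.29 (adjusted p = 0.0480), and it lost the call when any single 6-month library was left out. Cd177 had differences of 2.1, 2.98, 1.84, 1.65, 1.36 and 2.04 from 1 to 18 months, and its decrease from 3 to 6 months did not pass (-1.13 ± 0.32, adjusted p = 0.156). Against the 9-month difference 0 genes (0.0%) were called by limma and 72 had an unadjusted p under 0.05.

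**Figure D5:**
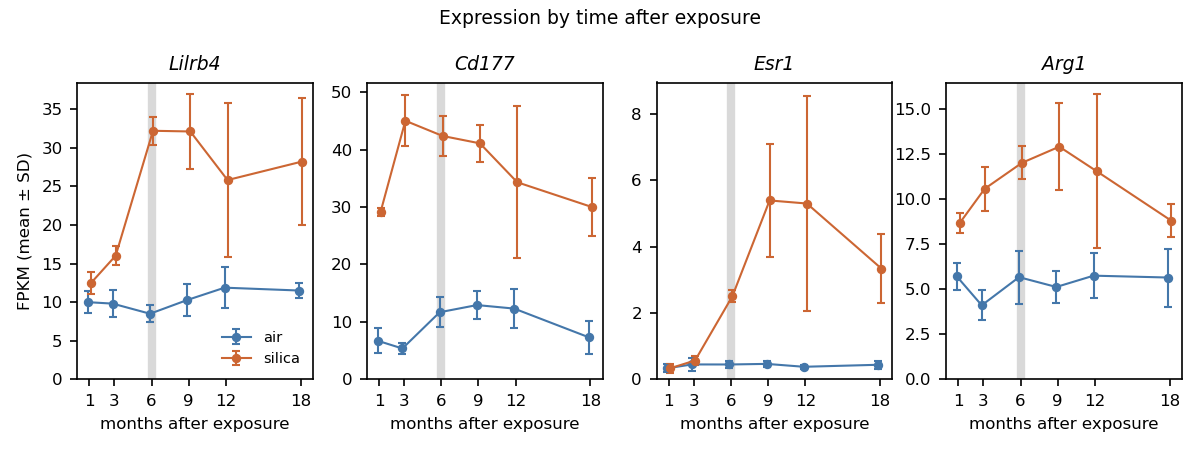
Mean FPKM (vertical axis, linear, bars of 1 SD, 5 rats a group except 4 in air at 9 months) of silica and air lungs at each time in months after exposure (horizontal axis) for Lilrb4, Cd177, Esr1 and Arg1, with 6 months shaded. Silica means of Lilrb4 go from 16 FPKM at 3 months to 32.2 at 6 months and those of Esr1 from 0.561 to 2.50 and then 5.40 FPKM at 9 months, while the silica mean of Cd177 is highest at 3 months (45.0 FPKM).

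The called genes were shared in large part with later and earlier times. Of the 353 genes, 246 (69.7%) were called in the same direction at 9 months, which is 62.6% of the calls of that time. The 193 shared with 12 months were 54.7% of the 6-month and 63.9% of the 12-month calls. For 3 months the 161 shared genes were 45.6% and 69.1%, for 18 months the 148 were 41.9% and 75.5%, and for 1 month the 77 were 21.8% and 68.1%. Called shares of all tested genes were 8.84%, 18.2%, 30.8%, 23.6% and 15.3% at 1, 3, 9, 12 and 18 months. Dbp alone was called in opposite directions, at 3 and 6 months, and its 6-month call was lost without air replicate 3 (adjusted p = 0.0515) or silica replicate 4 (0.0553). All 6 times shared 42 called genes.

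At 6 months and no other time, 62 genes were called, 46 higher and 16 lower. Of these, 26 had the same sign at all other times. Acat2, a cytosolic acetyl-CoA acetyltransferase of sterol synthesis, had 0.776, 0.917, 1.01, 0.946 and 0.789 FPKM in air and 1.96, 1.71, 1.75, 1.73 and 2.39 FPKM in silica. The groups did not overlap (0.79 ± 0.14, adjusted p = 2.60e-05). Its difference against the mean of the other times was 0.56 (adjusted p = 0.257). Ppp5c, a phosphatase of chaperone and hormone receptor complexes, had 7.44 to 8.33 FPKM in air and 9.07 to 11.0 FPKM in silica (0.29 ± 0.06), with a difference from the other times of 0.26 (adjusted p = 0.0835). For both genes a call at a single time was not matched by a called difference between times.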

How the data were processed

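RNA from a lung piece of each rat was isolated with miRNeasy kits and DNase, and libraries were stranded (TruSeq Total RNA, Ribo-Zero Gold), per the labels' protocols. Tools named per the submitters' processing notes, without roles, were Cufflinks 2.1.1, TopHat2 2.0.9, Bowtie2 2.2.9, Trimmomatic 0.35 and bcl2fastq 2.19. Build and annotation are not given in the sources used here. Deposited by the authors were FPKM values, per the title of the table. Of 2888 entries, the last was incomplete (31 of 59 values) and left out, so a longer table may exist. Depth is not given by FPKM and was read only relatively, from the steps of low values.

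Genes with 4 or more libraries at 1 FPKM or higher were tested on log2(FPKM + 0.5) with limma 3.58.1 (R 4.3.3) in one fit of all 12 groups, 59 libraries, with an intensity trend, no covariate and 47 residual degrees of freedom. Benjamini-Hochberg adjustment ran over all 1278 tested genes, with a threshold of 0.05. The median SE was 0.099. Fold changes understate low genes. The code was tested on simulated data. Of all FPKM columns, 0 were unmatched to samples. P-values measure the spread between rats.

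Named were the 16 largest rises and 10 largest falls among called genes with a symbol, a mean of at least 1 FPKM and groups that do not overlap, the 4 listed genes with the smallest adjusted p in each list, and genes a sentence needed, many of them chosen after their values were seen. Alternatives and outlier checks covered 198 genes, 99 of them from the rule together with every tested gene of the lists. Members and gene lists were chosen with earlier results of these data known. RefSeq (GRCr8) gave names and promoters, found for 13 of the 16 rises, 9 of the 10 falls and 829 of the 1278 tested genes. Alternatives were other pseudocounts (0.1, 1), filters, scalings, no trend, the 6-month groups alone and each replicate left out. Python 3.11.15 and matplotlib 3.10.9 drew the plots.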

Additional observations from a re-analysis of the deposited data

Results flagged for a closer look

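In groups of 5 libraries, a library standing apart by Dixon's test was found in 20 of 395 groups examined (5.06%). Chance gives about 1 in 20 for independent groups. Genes measured in the same libraries are not independent, so this share does not cover flags that gather in 1 library. In silica lungs Cd33 was high in replicate 4 (7.93 FPKM, others 6.31 to 6.65), Napsa low in replicate 2 (138.6 FPKM, others 152.9 to 157.7), Alpk3 high in replicate 5 (0.857 FPKM, others 0.697 to 0.734) and Kif22 low in replicate 3 (0.989 FPKM, others 1.37 to 1.50). Also high in silica lungs were Lig1 in replicate 5 (3.10 FPKM, others 2.80 to 2.86), Csrp3 in replicate 5 (3.57 FPKM, others 0.501 to 1.29), Ppp5c in replicate 1 (11.0 FPKM, others 9.07 to 9.62) and Adamts17 in replicate 2 (1.31 FPKM, others 0.85 to 0.964). In air lungs Vnn1 was high in replicate 5 (4.36 FPKM, others 3.57 to 3.80) and Csrp3 in replicate 1 (1.89 FPKM, others 0.581 to 0.934). The other values of air lungs all came from a single library, air replicate 4, and why they gathered there was not tested. Genes high there were Apoc1 (25.4 FPKM, others 6.85 to 10.5), Apoc2 (6.22 FPKM, others 0.583 to 1.81), Hpx (14.9 FPKM, others 3.62 to 6.18), Plg (5.42 FPKM, others 1.41 to 2.32), Cyp2e1 (13.1 FPKM, others 5.71 to 7.17), Cyp2c7 (3.31 FPKM, others 0.581 to 1.25) and Thrsp (1.68 FPKM, others 0.379 to 0.736). Genes low there were Itgam (2.82 FPKM, others 3.40 to 3.56), Lamtor1 (6.00 FPKM, others 7.10 to 7.42) and Arhgef1 (20.3 FPKM, others 21.9 to 22.2).

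Differences between times by the test of the difference were found for Lilrb4 against the mean of the other 5 times (0.91) and against 3 months (1.18), for Mir3572 against the mean of the other times (-3.12), and against 3 months for Dbp (1.87) and LOC103691058 (-1.23).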

How the results depend on the processing

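The count of 353 called genes stayed within 1.5 times under every alternative run, from 274 with an FPKM filter of 5 to 453 with the 6-month groups alone, and from 292 to 349 with any replicate left out. Alternatives were run for 198 genes, the listed and named ones. Of the 108 called, 80 kept their call in each of the 18 alternatives that tested them, and 15 lost it after quantile normalization. Genes too low for the FPKM filter of 5 were not tested under that filter. In 1 gene, Tab2, the direction reversed with a call, after quantile normalization (-0.12, adjusted p = 0.0412, against 0.04 and not called). Against the mean of the other times, the 2 calls became 0 with a pseudocount of 0.1, 0 without a filter, 1 with an FPKM filter of 5 and 0 to 1 with a replicate left out. They stayed 2 without silica replicate 3 of 12 months, chosen after seeing the data. Against 3 months the 3 calls became 7 after quantile normalization and 0 to 4 with a replicate left out, 0 without silica replicate 4. The causes were not tested. Median centring moved the median of all tested genes by -0.06 and quantile normalization by -0.09. No paired analysis was possible because the labels give no replicate numbers that pair rats across groups. The FPKM carry no counts, so no interval for counting error can be given, and 5 rats a group limit the precision.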

Other observations

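On the second principal component of the 6-month libraries (20.6% of the variance), air replicate 1 stood apart at -12.4. Without that library, 5 of the 108 called genes among those listed or named lost their call.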
